A study of Mus musculus with 7 samples.

Results

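The genes described here build the muscle acetylcholine receptor and gather it into clusters under the nerve ending. They were chosen by name, as the array's probe sets that the platform annotation pairs with Chrna1, Chrnb1, Chrnd, Chrng, Chrne, Musk, Rapsn, Dok7, Lrp4 and Agrn. All 10 were measured, among 18193 genes in all, by 14 probe sets, and no probe set paired with several genes held one of them. RNA came from myoblasts, the precursors of skeletal muscle fibres, of C57BL/6 mice, and was hybridised as biotin-labelled cRNA to 7 Affymetrix mouse arrays. The comparison is between 3 wild type samples, all female, and 4 samples from Hmga2 KO (HMGA2 -/-) mice, with replicates 1 and 3 from males and replicates 2 and 4 from females. The labels list no treatment, and the age of the mice, the muscle of origin, the culture conditions and the way the deletion was made were not stated there. The labels call the samples biological replicates without saying how many animals gave each, so p-values measure the spread between these samples, and the number of arrays limits the precision of every value.

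The receptor is a ring of subunits around a cation channel. In embryonic and uninnervated muscle the ring holds alpha, beta, delta and gamma subunits, and after innervation the epsilon subunit takes the place of gamma. Agrin, released by the motor nerve, binds LRP4, which activates the kinase MuSK. DOK7 acts with MuSK inside the cell, and rapsyn ties receptors together beneath the membrane. Muscle cells make most of these proteins before any nerve arrives, and the receptor genes are classical targets of the myogenic factors MyoD and myogenin, which bind E-box sequences in their promoters.

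The 250 bases before the annotated start of 3 receptor genes are shown because gamma and epsilon are the pair compared and alpha is the subunit that every form of the receptor holds. They are RefSeq sequences of build GRCm38.p6, written 5′ to 3′ on the strand of the gene, with the E-box core and the N-box in capitals. The E-box core searched was CAGCTG, and the N-box searched, on both strands, was CCGGAA. The E-box core reads the same on both strands and is 1 form of the general E-box CANNTG, and N-boxes are the sites of GABP, an Ets factor of synaptic genes. Chrng lies at chr1:87205561-87205810 on the plus strand, Chrne at chr11:70619195-70619444 on the minus strand and Chrna1 at chr2:73580339-73580588 on the minus strand.
Chrng: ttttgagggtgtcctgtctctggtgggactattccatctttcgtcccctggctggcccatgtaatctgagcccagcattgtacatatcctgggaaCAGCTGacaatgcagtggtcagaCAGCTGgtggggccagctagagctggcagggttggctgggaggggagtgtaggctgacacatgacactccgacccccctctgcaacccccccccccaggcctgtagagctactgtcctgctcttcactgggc
Chrne: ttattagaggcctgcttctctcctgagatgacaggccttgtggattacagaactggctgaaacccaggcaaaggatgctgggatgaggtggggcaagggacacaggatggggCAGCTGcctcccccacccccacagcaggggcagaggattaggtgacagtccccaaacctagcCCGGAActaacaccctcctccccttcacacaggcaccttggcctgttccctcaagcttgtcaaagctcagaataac
Chrna1: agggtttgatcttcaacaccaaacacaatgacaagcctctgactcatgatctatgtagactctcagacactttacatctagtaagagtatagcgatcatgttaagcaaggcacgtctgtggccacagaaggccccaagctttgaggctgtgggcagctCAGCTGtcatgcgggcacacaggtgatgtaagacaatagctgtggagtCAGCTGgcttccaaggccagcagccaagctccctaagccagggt

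The Chrng window held 2 E-box cores, which began 155 and 132 bases before the start, and the Chrna1 window held 2, at 92 and 44 bases. The Chrne window held 1 E-box core at 138 bases and the only N-box of the set, at 76 bases. For Musk 1 E-box core was found, at 68 bases, and for Chrnb1 0, in a window that held 3 general E-boxes. Neither the E-box core nor the N-box was found in the windows of Dok7 and Agrn, each of which has 2 annotated starts in the table. A general E-box stood in 1 window of each, at 149 bases for Dok7 and 92 for Agrn. The table matched 7 of the 10 genes, and Chrnd, Rapsn and Lrp4 had no entry. Over all 32851 promoter windows of this length, 13.0% held at least 1 E-box core, 1.26% held 2 or more and 12.0% held an N-box. The general E-box was common, with at least 1 in 66.2% of these windows and 2 or more in 31.8%. A match of letters is a description of the sequence and not evidence that a factor binds there.

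Values are probe set intensities on the linear scale, scaled by the authors to a median of 150 on each array, and differences are Hmga2 KO minus wild type on the log2(intensity + 1) scale. The targeted gene bore out the labels: Hmga2 had 11999, 9998 and 12800 in wild type and 85.7 to 104 in the 4 Hmga2 KO samples (difference -6.90, SE 0.115, adjusted p = 1.00e-08, limma). Background was read from Eif2s3y, Kdm5d and Uty, Y-linked genes that females lack, whose 9 probe sets lay between 33.9 and 58.2 in the 5 females. Of the RNA integrity controls, Actb had a 3′ over 5′ signal of 1.94 in wild type replicate 2, against 1.61 to 1.74 elsewhere. The highest intensity on an array was 105395 in Hmga2 KO replicate 1 and 38896 in Hmga2 KO replicate 3, against 26181 to 27844 in the other samples. Across all genes, 5 (0.0275%) passed an adjusted p of 0.05, and 67.6% had a difference below 0, with a median of -0.07. After quantile normalization that median was -0.03.

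Receptor and clustering genes were well above background in both genotypes, with the exception of Chrne, and none of the 10 passed the test (limma, Benjamini-Hochberg adjustment over all genes). The smallest adjusted p was 0.249, for Rapsn. Of the 10, 9 had a log2 mean below that of wild type, where 67.6% of all genes did, and their median difference was -0.23, where that of all genes was -0.07. Of the 9, Agrn lay so close to 0 (-8.90e-04) that its mean intensity was higher in Hmga2 KO. Without adjustment 3 had a p under 0.05, all lower in Hmga2 KO (Rapsn, Chrna1 and Chrnd), where 10.3% of all genes did. Only in Rapsn did the groups not overlap, where 9.29% of all genes were lower in every Hmga2 KO sample than in every wild type sample and 2.37% higher. The count of 3 was 1 with sex in the model, in females alone, and without wild type replicate 2, wild type replicate 3, Hmga2 KO replicate 1 or Hmga2 KO replicate 4. Rapsn had such a p in each of 16 alternative analyses, Chrna1 in 8 and Chrnd in 6.

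**Figure D1:**
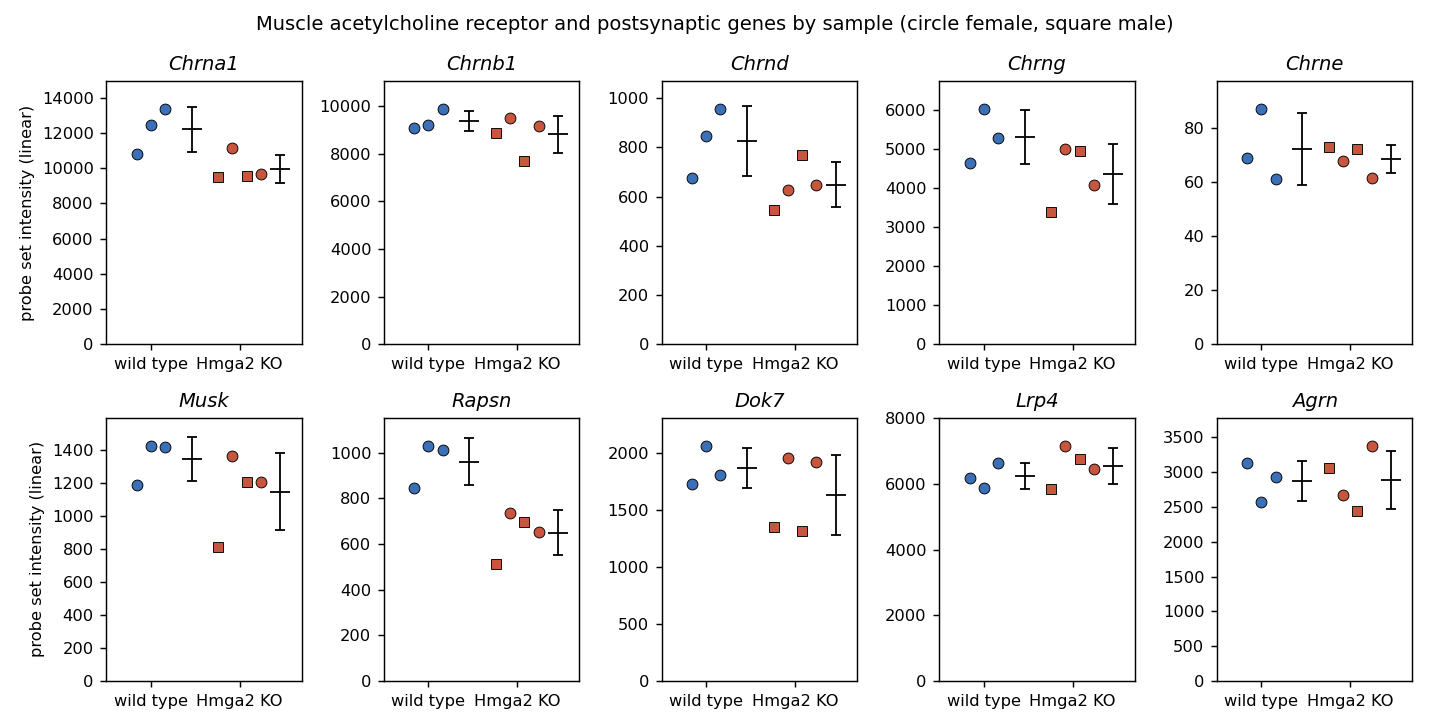
Intensity of the brightest probe set of each of the 10 genes (vertical axis, linear, from 0) in the 3 wild type (blue) and 4 Hmga2 KO (red) samples, with circles for female and squares for male samples and bars for the mean and SD of a group. Rapsn is the only gene whose groups do not overlap, and the 2 male Hmga2 KO samples are the lowest of all 7 for Dok7.

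Among the receptor subunits, Chrna1, which encodes the alpha subunit that binds acetylcholine, had intensities of 10826, 12437 and 13344 in wild type and 9498, 11168, 9536 and 9651 in Hmga2 KO. Of the Hmga2 KO samples 3 lay below every wild type sample, whereas Hmga2 KO replicate 2 lay within their range. The means were 12202 ± 1275 (SD, n = 3) and 9963 ± 806 (SD, n = 4), and the difference was -0.29 (SE 0.108, 95% interval -0.54 to -0.04, adjusted p = 0.326).

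Chrnd, the delta subunit, had 675, 847 and 955 in wild type and 547, 627, 769 and 648 in Hmga2 KO. Wild type replicate 1 and Hmga2 KO replicate 3 made the groups overlap. The difference was -0.35 (SE 0.150, 95% interval -0.69 to -0.01, adjusted p = 0.372).

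Chrnb1, the beta subunit, differed least among the bright subunits. It had 9078, 9203 and 9859 in wild type and 8861, 9495, 7675 and 9175 in Hmga2 KO, with only Hmga2 KO replicate 3 clearly apart. The difference was -0.10 (95% interval -0.33 to 0.13, adjusted p = 0.704).

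The embryonic gamma subunit was bright and the adult epsilon subunit close to background in both genotypes. On its brightest probe set Chrng had 4638, 6030 and 5293 in wild type and 3388, 5021, 4956 and 4087 in Hmga2 KO. Hmga2 KO replicates 1 and 4 lay below every wild type sample and replicates 2 and 3 among them. The means were 5320 ± 697 (SD, n = 3) and 4363 ± 777 (SD, n = 4), and the difference was -0.30 (SE 0.158, 95% interval -0.65 to 0.06, adjusted p = 0.440).

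Chrng has another 2 probe sets. The next brightest had 2049, 2029 and 2299 in wild type and 1265, 1929, 2159 and 1662 in Hmga2 KO, and its difference of -0.30 (adjusted p = 0.493 over all probe sets) was close to that of the brightest. The dimmest, paired with the same transcript accession, had 42.9 to 52.2 in wild type and 53.3 to 64.1 in Hmga2 KO, within or just above the range of the Y-linked probe sets. Its difference of 0.28 (adjusted p = 0.379) had the opposite sign, although its groups did not overlap.

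Chrne had 69.0, 87.0 and 61.1 in wild type and 73.0, 67.8, 72.2 and 61.5 in Hmga2 KO, just above the 58.2 that marks the top of the background. The spread was as wide inside wild type as between the genotypes, and wild type replicate 2 was the highest sample. The difference was -0.06 (SE 0.131, 95% interval -0.36 to 0.23, adjusted p = 0.860) and was 0.08 without wild type replicate 2. So close to background a fold is understated, and a change of the transcript from a low level could not be seen.

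**Figure D2:**
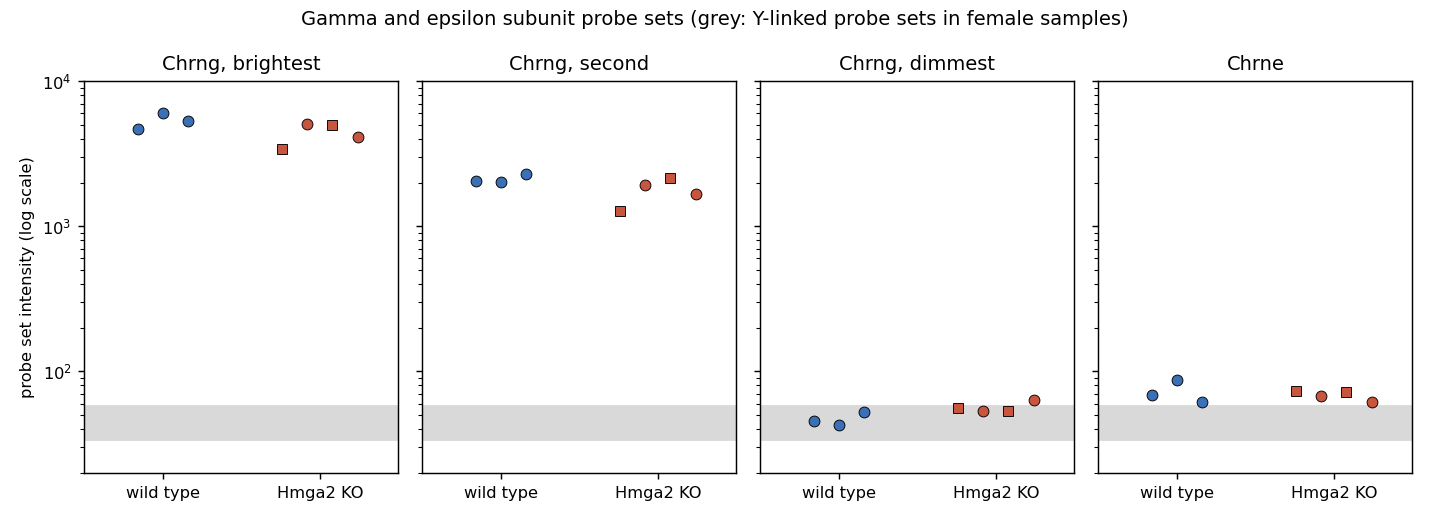
Intensity (vertical axis, log scale) of the 3 Chrng probe sets and the Chrne probe set in the 3 wild type (blue) and 4 Hmga2 KO (red) samples, with circles for female and squares for male samples. The grey band is the range of 9 Y-linked probe sets in the 5 female samples, 33.9 to 58.2; the dimmest Chrng probe set lies in or just above it and Chrne just above it, while the other 2 Chrng probe sets stay above 1000.

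To compare the subunits' changes, the log2 value of Chrne was taken from that of Chrng in each sample. This value was 6.05, 6.10 and 6.41 in wild type and 5.52, 6.19, 6.08 and 6.03 in Hmga2 KO. Only Hmga2 KO replicate 1 stood clearly apart, and the other 3 lay close to the wild type values. The means were 6.19 ± 0.20 (SD, n = 3) and 5.95 ± 0.30 (SD, n = 4), a difference of -0.23 with an exact two-sided permutation p of 0.400 over the 35 splits, of which the smallest possible is 0.0286. It was -0.09 without Hmga2 KO replicate 1, -0.08 in females alone and -0.04 with the mean of each gene's probe sets. That mean includes the dimmest Chrng probe set, near background, whose difference of 0.28 had the opposite sign to the -0.30 of each of the other 2. The change of gamma was therefore not distinguished from that of epsilon at this number of samples. With Chrne so close to background, where a fold is understated, the comparison could not show whether gamma and epsilon changed alike. Brightness depends on the probe set, so the value itself is not a ratio of transcripts.

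Of the clustering genes, Rapsn, whose product rapsyn binds the receptor from inside the cell, showed the widest gap. It had 843, 1029 and 1009 in wild type and 510, 737, 696 and 650 in Hmga2 KO. Every Hmga2 KO sample lay below every wild type sample. The means were 960 ± 102 (SD, n = 3) and 648 ± 98.7 (SD, n = 4), and the Hmga2 KO level was 67.2% of wild type by the fitted log2 difference (-0.57, SE 0.142, 95% interval -0.90 to -0.25). Its unadjusted p of 0.00289 became an adjusted p = 0.249 by limma, and adjusted p ranged from 0.103 to 0.630 over the 16 alternatives. The difference was -0.47 in females alone and -0.46 without Hmga2 KO replicate 1.

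Musk, the receptor tyrosine kinase that organises the synapse, had 1190, 1426 and 1422 in wild type and 815, 1362, 1210 and 1206 in Hmga2 KO. Hmga2 KO replicate 1 was low and the other 3 lay within the wild type range. The difference of -0.25 (95% interval -0.64 to 0.14, adjusted p = 0.542) was -0.09 without that replicate and -0.07 in females alone.

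Dok7, the adaptor that keeps MuSK active, separated the male Hmga2 KO samples from the other 5. It had 1731, 2062 and 1810 in wild type and 1348, 1954, 1312 and 1917 in Hmga2 KO. The male Hmga2 KO replicates 1 and 3 were the lowest of all 7 samples, and the female replicates 2 and 4 lay within the wild type range. The second Dok7 probe set gave the same order, with 259 and 261 in the males, 395 and 350 in the Hmga2 KO females and 312 to 449 in wild type. The difference between the genotypes was -0.22 (95% interval -0.59 to 0.16, adjusted p = 0.586), and 0.06 in females alone.

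Lrp4, the agrin receptor, had 6174, 5871 and 6648 in wild type and 5851, 7157, 6747 and 6467 in Hmga2 KO. It was the only gene of the 10 with a log2 mean higher in Hmga2 KO, with overlapping groups and a difference of 0.07 (95% interval -0.16 to 0.30, adjusted p = 0.786). Agrn, which muscle cells make as well as nerves, had 3139, 2568 and 2927 in wild type and 3063, 2672, 2443 and 3378 in Hmga2 KO. The groups lay across each other, with mean intensities of 2878 and 2889, and the difference of log2 means was -8.90e-04 (95% interval -0.30 to 0.30, adjusted p = 0.998). The second Agrn probe set, at 38.2 to 62.1, was at background. The intervals of Lrp4 and Agrn do not reach the point estimate of Rapsn (-0.57), whereas those of Musk and Dok7 do. Rapsn has an interval of its own (-0.90 to -0.25), and the genes were not tested against each other.

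**Figure D3:**
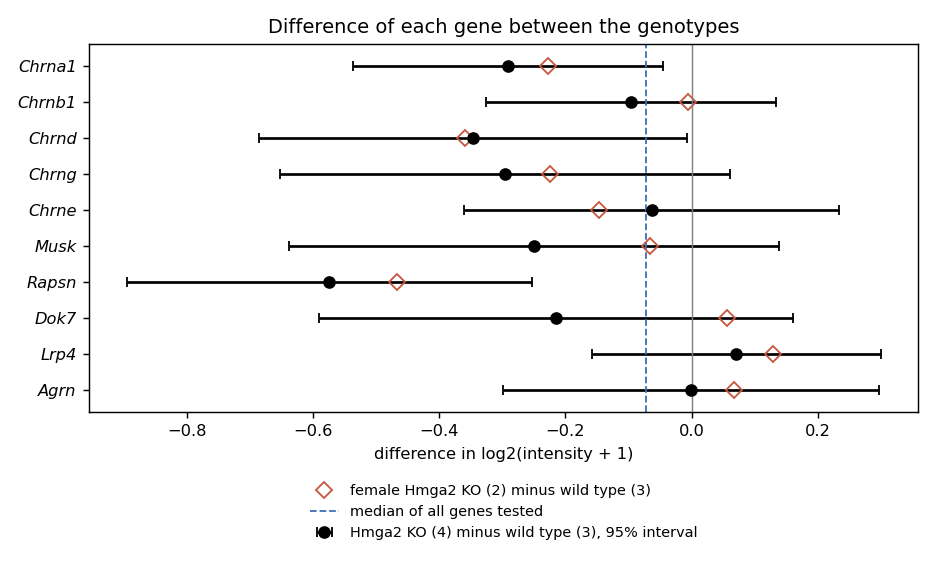
Difference of each gene in log2(intensity + 1) (horizontal axis), as the mean of the 4 Hmga2 KO minus that of the 3 wild type samples with its 95% interval from limma (black), and for the 2 female Hmga2 KO samples alone (open diamonds). The blue dashed line is the median of all genes, -0.07; the intervals of Rapsn, Chrna1 and Chrnd lie below 0 before adjustment, and the female values of Dok7, Lrp4 and Agrn lie above 0.

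Inside the Hmga2 KO group, males were compared with females in a fit of 3 groups. None of the 10 genes passed (limma, smallest adjusted p = 0.455), where 7 of all genes (0.0385%) did. The smallest p was that of Dok7, lower in males by a difference of -0.54 (SE 0.130, 95% interval -0.84 to -0.24, adjusted p = 0.455), and it was the only one of the 10 with an unadjusted p under 0.05, where 3.64% of all genes had one in that direction. Musk differed by -0.37 (adjusted p = 0.872) and Rapsn by -0.22 (adjusted p = 0.942), while Chrnd had 0.03 (adjusted p = 1.00). With 2 samples of each sex, and no wild type male, sex and replicate cannot be told apart from an effect of the deletion in males.

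The samples at the extremes of several genes were also the extremes of the markers of differentiated muscle. Of the 10 genes, 6 were lowest in Hmga2 KO replicate 1, 5 were highest in wild type replicate 2 and 3 in wild type replicate 3. The share of all genes with their extremes in these samples was not worked out, so these counts cannot be called particular to the 10. Lrp4, among the 6, had 5851 in Hmga2 KO replicate 1, hardly below its 5871 in wild type replicate 2. Against the mean of the 7 samples, the log2 value of Rapsn was 0.15, 0.43 and 0.41 in wild type and -0.58, -0.05, -0.13 and -0.23 in Hmga2 KO. For Chrng it was -0.02, 0.36 and 0.17 in wild type and -0.47, 0.09, 0.08 and -0.20 in Hmga2 KO.

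Over 19 measured markers of differentiated muscle the same mean was 0.10, 0.64 and 0.33 in wild type and -0.90, 0.27, -0.31 and -0.13 in Hmga2 KO. Wild type replicate 2 and Hmga2 KO replicate 1 were thus the extremes there as well, and wild type replicate 2 is also the sample with the highest 3′ to 5′ ratio. Not all of the 10 followed this order. Lrp4 was low in both (-0.12 in wild type replicate 2 and -0.13 in Hmga2 KO replicate 1), and Agrn was low in the first and above its mean in the second (-0.16 and 0.10). Chrne was high in wild type replicate 2 but above its mean in Hmga2 KO replicate 1 (0.064). Chrnb1 (-0.23) and Dok7 (-0.38) were lowest in Hmga2 KO replicate 3, and Chrnb1 was close to its mean in replicate 1 (-0.03). Chrnd (0.11) and Chrng (0.08) were above their means in Hmga2 KO replicate 3, where the markers had -0.31. In Hmga2 KO replicate 2 the markers had 0.27, but Rapsn had -0.05 and Chrnd -0.18. Chrna1 (0.30) and Chrnd (0.42) were highest in wild type replicate 3. Whether the extent of differentiation of a culture accounts for the differences of the receptor and clustering genes was not tested, and fewer differentiated cells and less RNA per cell cannot be told apart in bulk samples.

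**Figure D4:**
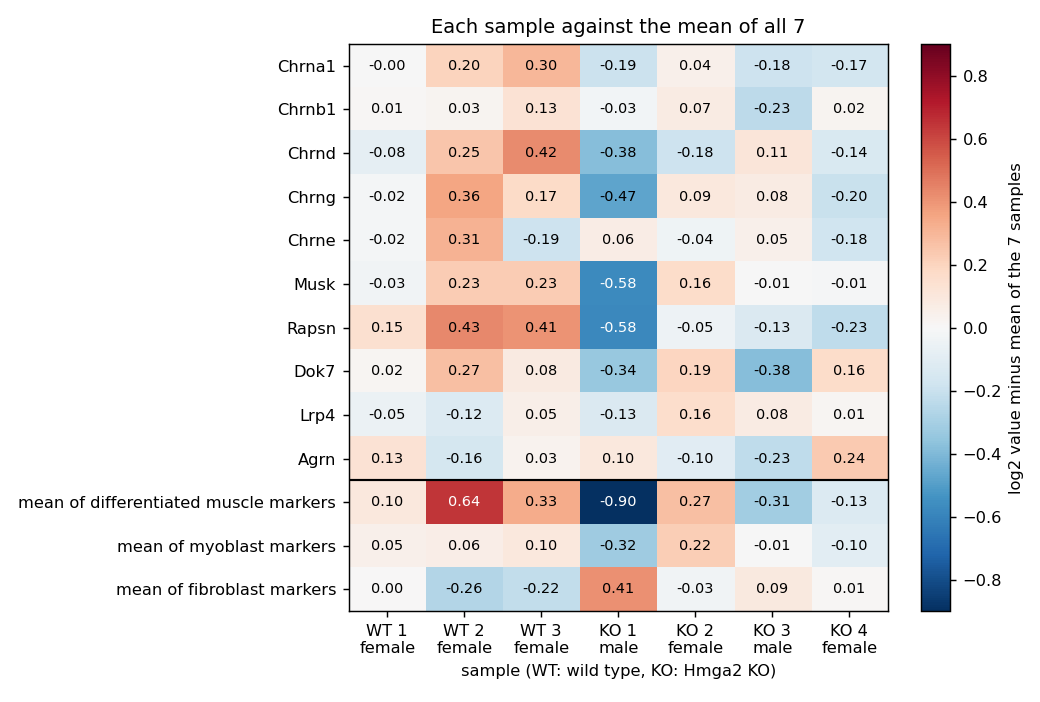
Log2 value of each of the 10 genes minus its mean over the 7 samples, by sample, and below the line the mean of the same quantity over 3 lists of marker genes (red above and blue below the mean, with the value printed in each cell). Hmga2 KO replicate 1 is lowest for Chrnd, Chrng, Musk and Rapsn and for the differentiated muscle markers (-0.90), and highest for the fibroblast markers (0.41).

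Markers of the cells that the cultures could hold were read beside these values. All 19 markers of differentiated muscle had a difference below 0, where 67.6% of all genes did, of which 9 had an unadjusted p under 0.05, where 10.3% of all genes were lower at that p. None passed adjustment (limma), with a median difference of -0.59. Their summed intensity was 136542 to 186098 in wild type and 74995 to 156017 in Hmga2 KO. Myog, the myogenin gene, had 17705, 21079 and 18851 in wild type and 13699 to 19632 in Hmga2 KO (adjusted p = 0.596), Ckm, muscle creatine kinase, 161 and 129 as means (adjusted p = 0.351), and Acta1, skeletal actin, 10463 and 7186 (adjusted p = 0.421). The 10 myoblast markers were all above background in every sample, with sums of 54769 to 58729 and 46983 to 57642, and 7 had a difference below 0. Of them, 2 were lower at an unadjusted p under 0.05, where 10.3% of all genes were, and 0 passed adjustment. Both were lower without overlap, where 9.29% of all genes were. They were Cd82, a tetraspanin of muscle stem cells, with means of 5039 and 3365 (adjusted p = 0.294), and Vcam1, an adhesion molecule, with 6879 and 5848 (adjusted p = 0.340). Pax7 had means of 5552 and 5981, Myf5 1600 and 2717, and Myod1 15351 and 14761. The groups of Myf5 overlapped, with 1979, 1412 and 1408 in wild type and 1816, 4885, 2478 and 1687 in Hmga2 KO (adjusted p = 0.431, limma). The cells therefore carried the markers of their label together with those of differentiating muscle.

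Fibroblast markers summed to 19312 to 21463 in wild type and 23566 to 24582 in Hmga2 KO, sums that did not overlap. The brightest genes weigh most in such a sum. The mean log2 deviation of the same markers did overlap, with 0.003 in wild type replicate 1 and -0.030 in Hmga2 KO replicate 2. Of the 13 measured, 11 had a difference above 0, 4 with an unadjusted p under 0.05 (2.99% of all genes were higher at that p), and 10 were above background in every sample. Their defining genes Pdgfra (means 217 and 301), Col1a1 (1392 and 1093) and Col3a1 (7683 and 8314) had adjusted p of 0.712, 0.802 and 0.705, and Col1a1 had the lower mean in Hmga2 KO. The 4 were Mgp, a matrix inhibitor of calcification, with means of 2750 and 4581 (adjusted p = 0.158), Smoc2, a matrix protein, with 95.9 and 335 (adjusted p = 0.201), Islr with 1019 and 1785 (adjusted p = 0.294) and Dcn, the proteoglycan decorin, with 58.6 and 73.6 (adjusted p = 0.337). Schwann and motor neuron markers summed to 4204 to 5482 and 5711 to 6745, again without overlap, with 9 of 14 above background in every sample. Their mean log2 deviation did overlap, with 0.010 in wild type replicate 2 and -0.039 in Hmga2 KO replicate 1. The list as a whole was split, with 7 differences below 0, 7 above 0 and a median of 0.02. At an unadjusted p under 0.05, 1 was lower (Slc18a3, means 45.0 and 38.0), where 10.3% of all genes were. At that p 2 were higher (Nefl, 81.8 and 102, and Isl1, 466 and 774, with overlapping groups), where 2.99% of all genes were. Of this list 0 passed adjustment, and its defining genes S100b (57.9 and 56.8) and Sox10 (78.1 and 76.1) were near background. Sums of endothelial markers (507 to 573 and 485 to 507, 4 of 7 above background in every sample, with Pecam1 at 75.1 and 67.2) and leukocyte markers (670 to 739 and 666 to 706, 5 of 8, with Ptprc at 65.0 and 67.1) were low. Smooth muscle and pericyte markers summed to 23481 to 33079 and 24984 to 35485, with 7 of 8 above background in every sample and the defining gene Myh11 at 106 in both groups. This list shares Des with the myoblast markers, so its sum is not one of smooth muscle and pericytes alone. Of the 8 markers, 2 were higher at an unadjusted p under 0.05, where 2.99% of all genes were, and 0 passed adjustment. These were Rgs5 with means of 3576 and 9141 (adjusted p = 0.296) and Mcam with 2242 and 3665 (adjusted p = 0.354), both with overlapping groups. The part of any of these cells in the differences of the receptor genes was not tested.

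Of the genes that work with agrin and MuSK, none of 37 measured passed (limma), and their median difference of -0.07 was that of all genes. Without adjustment 1 was lower and 1 higher at a p under 0.05, where 10.3% and 2.99% of all genes were, so the list had no more calls than all genes did. These were Dvl3, a Dishevelled protein that binds MuSK, with means of 127 and 103 (difference -0.29, adjusted p = 0.308), and Phldb2, which anchors microtubules at the receptor clusters, with 7279 and 8946 (difference 0.30, adjusted p = 0.313). Dnaja3, a chaperone that binds MuSK, had 7312 and 6344 (adjusted p = 0.404), and Bgn, the matrix proteoglycan biglycan, 4440 and 6202 (adjusted p = 0.410).

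Of 33 measured genes of the synaptic basal lamina and the dystrophin complex, 3 were lower and 0 higher at an unadjusted p under 0.05, close to the 10.3% and 2.99% of all genes, and 0 passed adjustment (limma), with a median difference of -0.04. Dmd, the dystrophin gene, had 1029, 1066 and 921 in wild type and 654, 792, 728 and 880 in Hmga2 KO, without overlap (difference -0.40, adjusted p = 0.294). Dtnb, a dystrobrevin, had means of 325 and 275 (adjusted p = 0.354), and the laminin receptor subunits Itga3 and Itga7 had 664 and 492 (adjusted p = 0.372) and 1922 and 1318 (adjusted p = 0.385).

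Of 33 genes that control synaptic transcription in muscle, 3 were lower and 1 higher at an unadjusted p under 0.05, close to the 10.3% and 2.99% of all genes, and 0 passed adjustment (limma), with a median difference of -0.04. Myf6, a myogenic factor, had 517, 646 and 500 in wild type and 145, 519, 238 and 150 in Hmga2 KO. Replicate 2 of Hmga2 KO lay among the wild type values and the other 3 far below them (difference -1.27, adjusted p = 0.294). The class IIa histone deacetylases Hdac5, with means of 719 and 514 (difference -0.46, adjusted p = 0.294), and Hdac9, with 316 and 181 (difference -0.78, adjusted p = 0.338), are repressors that act with MEF2 factors. Dach2, a corepressor that acts on the myogenin gene, had 85.7, 92.1 and 94.0 in wild type and 131, 147, 97.3 and 132 in Hmga2 KO, the opposite order without overlap (difference 0.47, adjusted p = 0.294). Myog (difference -0.17, adjusted p = 0.596) and Myod1 (difference -0.06, adjusted p = 0.796), the factors that bind the E-boxes of receptor genes, had overlapping groups.

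Of 28 other synaptic muscle genes, 4 were lower and 1 higher at an unadjusted p under 0.05, where 10.3% and 2.99% of all genes were, and 0 passed adjustment (limma). Rab3a, a vesicle GTPase, had means of 553 and 415 (difference -0.40, adjusted p = 0.292), and Ufsp1, a protease of a ubiquitin-like modifier, 253 and 205 (difference -0.30, adjusted p = 0.292). Nsf, which takes vesicle fusion complexes apart, had 1026 and 855 (adjusted p = 0.313), and Gmppb, an enzyme of sugar activation whose loss causes a myasthenic syndrome, 316 and 265 (adjusted p = 0.354). The 1 higher was Cd24a, with 3461 and 5041 and overlapping groups (difference 0.56, adjusted p = 0.371).

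The nicotinic receptor subunits of neurons are relatives known mainly from neurons. None of 10 measured passed (limma), none had an unadjusted p under 0.05, and their median difference was -0.09. Chrna3 had means of 202 and 179 (difference -0.18, adjusted p = 0.415), Chrnb2 72.4 and 82.7, Chrnb4 56.6 and 51.0, and Chrnb3 49.9 and 46.8. Of the 10, 6 were above background in every sample and 2 in none.

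Genes with a pattern like those of gamma and epsilon were sought among genes with a mean log2 value of 7 or more, by the mean absolute difference of log2 values taken from their own mean over the 7 samples. For Chrng, whose own mean absolute deviation was 0.20, the nearest of 11593 genes was Sh3bgr, a gene of striated muscle, at 0.03. Oip5os1 (0.05), Ring1 (0.05), Pigh (0.05) and Catsper2 (0.05) followed. With 11593 candidates and 7 samples some near match is likely for any pattern. How near one lies by chance was not worked out, for Chrng or for Chrne. For Chrne, whose deviation was 0.12, the nearest of 11594 were Hes1 (0.05), Ankrd42 (0.05), Wdr4 (0.06), Sgsm2 (0.06) and C030034I22Rik (0.06). The values of Chrne lie so close to background that its pattern may hold little beyond noise, which was not tested.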

How the data were processed

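Per the labels' protocols, cRNA was labelled with biotin and read on Affymetrix arrays. The authors deposited linear intensity values for 45101 probe sets in 7 samples; how they summarised the probes, removed background and called detection is not stated in the labels. Equal array medians show that the arrays were scaled. Here log2(intensity + 1) was used as it stood.

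The platform annotation paired 34945 probe sets with 1 gene, 932 with several and 9160 with none, and 64 controls were left out with the last 2 kinds. RefSeq (GRCm38.p6) held 34741 of the 34945. The brightest probe set by mean stood for each of 18193 genes.

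Titles gave the groups. limma 3.58.1 (R 4.3.3; lmFit, eBayes) was run with no covariate, Benjamini-Hochberg adjustment across genes and a cut-off of 0.05. The permutation test enumerated every split. Scripts were tested on simulated data. Alternatives were sex as covariate, females alone, a replicate block, leaving out each sample, quantile normalization, a pseudocount of 16, dropping the dimmest 40% of genes, mean probe sets, array weights and a trended robust prior. The genes and lists were chosen with earlier results of these data known. Named are the 10 genes, Hmga2, up to 4 genes with the smallest p in each list, Myog, Myod1, defining markers (not all of them given) and the 5 genes nearest to Chrng and to Chrne. Cd24a was added as the 1 gene of its list that was higher at an unadjusted p under 0.05.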

Additional observations from a re-analysis of the deposited data

Results flagged for a closer look

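Within the Hmga2 KO group, the Chrna1 intensity of replicate 2 (11168) stood apart from the other 3 (9498, 9536 and 9651). Its gap to the nearest of them was 0.901 of the group's range on the log2 scale, above Dixon's 95% critical value for 4 samples. Chance gives such a value in about 1 of 20 groups, and 11 groups of values were examined. Without that replicate the difference of Chrna1 was -0.35 (adjusted p = 0.196, limma), against -0.29 with it.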

How the results depend on the processing

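The count of 0 among the 10 genes past the adjusted threshold was 0 in each of the 16 alternatives, also between male and female Hmga2 KO samples where those were refitted. The count over all genes was 5, ranged from 2 to 17 when 1 sample was left out, and was 99 with the replicate number as a block. In that block Rapsn had a difference of -0.58 (adjusted p = 0.103). The deviations of same-numbered samples correlated at 0.31, 0.37 and -0.18 over genes, and those of differently numbered samples at -0.40 to 0.18. Numbers 1 and 2 thus lay above every differently numbered pair, and number 3 did not. The main fit did not take the numbers as pairs, and the correlations do not settle whether they are. The numbers used are those of the titles. Other labels number the samples differently and disagree with each other on Hmga2 KO replicate 2. The differences of Chrna1, Chrnb1, Chrnd, Chrng, Musk, Rapsn and Lrp4 kept their sign in all 16 alternatives. Chrne, which the filter on dim genes removed, changed sign without wild type replicate 2, its range with 1 sample left out being -0.18 to 0.076. Dok7 was 0.056 with sex in the model and in females alone. Agrn, near 0, was 0.067 with sex in the model and in females alone, 0.073 with quantile normalization, 0.0058 with the mean of its probe sets, and -0.081 to 0.076 with 1 sample left out. The gamma minus epsilon difference kept its sign in all alternatives run for it. Signal over background limits what can be said of Chrne.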
